A study of Caenorhabditis elegans with 2 samples.

Results

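The genes described here are the 47 protein-coding genes of Caenorhabditis elegans that encode subunits of the vacuolar ATPase or proteins of the autophagy pathway, out of 19973 protein-coding genes in all. They were chosen by symbol (vha-*, unc-32, atg-*, epg-*, lgg-*, bec-1, unc-51 and hlh-30) in the WBcel235 gene annotation. The rule uses no measured value, but it was set with earlier results of these data known. They fall into 9 genes of the V1 sector, 12 of the V0 sector and 26 of autophagy. The data are chromatin immunoprecipitation and sequencing of TLF-1, a relative of the TATA-binding protein TBP that is needed in the worm embryo. The single group consists of 2 biological replicates of whole young adults of strain OP749, 65.5 hours old, both sexes pooled, synchronised as starved L1 larvae after bleaching. All worms carry the unc-119 allele tm4063 and the integrated transgene wgIs749, which holds unc-119(+) as rescue and tlf-1 tagged at its end with TY1, EGFP and 3xFLAG, and chromatin was precipitated through the EGFP. No untagged strain was analysed here, the labels do not say which cells express the transgene, and whole animals mix all tissues.

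The vacuolar ATPase is a proton pump of lysosomes, endosomes and some plasma membranes. Its V1 sector lies in the cytosol and hydrolyses ATP, and its V0 sector is a membrane-embedded ring and stator through which protons pass. In autophagy a double membrane grows around cytoplasm, closes with the help of the ubiquitin-like proteins LGG-1 and LGG-2, and fuses with lysosomes that the pump has acidified. HLH-30, the worm relative of mammalian TFEB, is known to activate genes of both systems in fasting and ageing worms.

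The authors' peak lists held 24495 peaks for replicate 1, 23453 for replicate 2, 28153 for both pooled and 1880 in a smaller set (the IDR set) that passed a cut-off for reproducibility, the irreproducible discovery rate. The IDR set consists of the 1880 strongest pooled peaks, and a rank below is the place of a peak in its own list by the authors' signal value, 1 being the strongest. A gene was counted as having a promoter peak when a summit, the highest point of a peak, lay in its promoter window, the 500 bp before and the 100 bp after its annotated start. Read depth is unknown. The -log10 q-value of the 14 IDR peaks in the windows described below equals 3.505, the maximum of the IDR set. That value is shared by 1601 of the 1880 IDR peaks, so it neither orders the 14 nor sets them apart.

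Promoter peaks of TLF-1 were found at 14 of the 47 genes, no 2 of them sharing a peak, where 5.28% of all protein-coding genes had one. At 4 of the 14 the summit also lay in the window of a coding gene outside the 47, and 26.8% of all promoter IDR peaks lay in more than 1 window. By sector and pathway the 14 genes were 4 of 9 V1 genes, 2 of 12 V0 genes and 8 of 26 autophagy genes. In the much longer pooled list 34 of the 47 had a summit in the window, beside 25.7% of all protein-coding genes, namely 8 of 9 V1 genes, 8 of 12 V0 genes and 18 of 26 autophagy genes. Replicate 1 alone gave 13 of 47 among its 1880 strongest peaks, beside 5.13% of all genes, and replicate 2 alone gave 13 of 47, beside 4.94%. The groups are small, and the differences between them were not tested. With a window of only 250 bp upstream, 6 of the 47 genes kept a peak, beside 3.45% of all genes, since 8 of the 14 summits lay farther out.

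**Figure D1:**
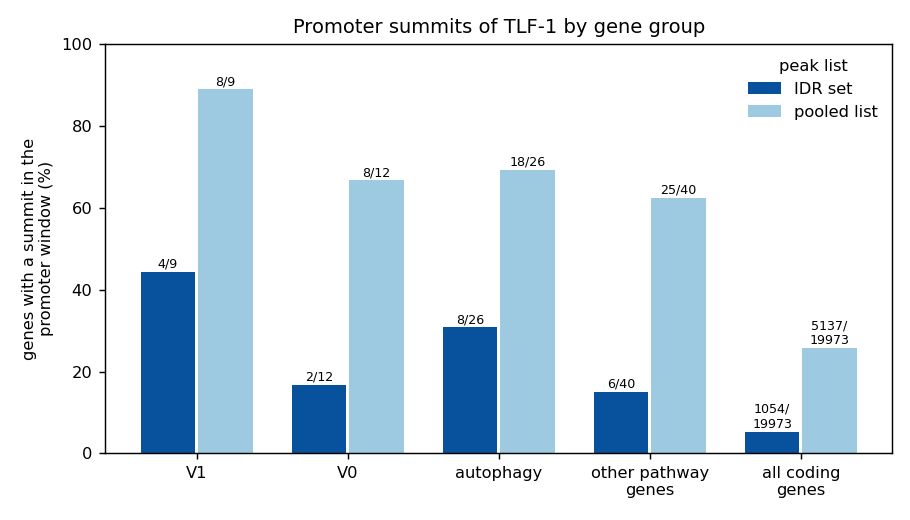
Bars give the share of genes, in percent, with a TLF-1 summit in the promoter window, for the IDR set (dark) and the pooled list (light), with the number of genes with a summit over the number in the group. The V1, V0 and autophagy groups reach 44.4%, 16.7% and 30.8% in the IDR set, where all coding genes stand at 5.28%.

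The strongest promoter peak among the 47 genes belonged to V1. It lay 359 bp upstream of vha-18 (WBGene00018698, chromosome V, peak at 8413743 to 8413948), which encodes an H subunit, a regulatory part of the sector. Its rank was 188 in the IDR set, 165 in replicate 1 and 233 in replicate 2, with signals of 131 and 124 in these replicates. The summit also lay 245 bp upstream of pos-1, which is transcribed in the other direction and encodes a maternal RNA-binding protein, so it was closer to the start of pos-1 than to that of vha-18. The other H subunit gene, vha-15, had no IDR summit in its window, and its best pooled summit, 241 bp upstream, ranked 5620.

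The other V1 genes with IDR peaks were vha-12, vha-8 and vha-9, all in the weaker part of the set. The peak of vha-12 (WBGene00006921, chromosome X, peak at 4190489 to 4190892), which encodes the B subunit of the ATP-hydrolysing hexamer, was centred 403 bp upstream and ranked 1217, with 1704 in replicate 1 (signal 45.1) and 1166 in replicate 2 (signal 58.5). That of vha-8 (WBGene00006917, chromosome IV, peak at 6790400 to 6790803), for the stalk subunit E, ranked 1502, with 1674 in replicate 1 (signal 45.5) and 1282 in replicate 2 (signal 56.2). Its summit was 472 bp upstream of vha-8, near the edge of the window, and only 114 bp upstream of the divergent gene C17H12.2. The peak of vha-9 (WBGene00006918, chromosome II, peak at 10303684 to 10304087), for the rotor subunit F, lay 173 bp upstream and ranked 1529, with 2365 in replicate 1 (signal 38.5), outside the strongest 1880 there, and 1407 in replicate 2 (signal 53.8). When each summit was given to the nearest coding start alone, V1 kept 2 genes, vha-12 and vha-9, and in the stronger 940 IDR peaks it kept only vha-18.

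In their promoter windows, the remaining V1 genes had only pooled summits far below the IDR threshold, or none. Pooled summits only were present at vha-11 (subunit C, rank 5440), vha-15, vha-13 (the catalytic subunit A, rank 7521) and vha-14 (rotor subunit D, rank 26398). At vha-13 a window summit was listed in replicate 2 (rank 4430) and not in replicate 1. A stronger peak lay upstream of the vha-13 window, at -621 bp in the pooled list (rank 2627) and -608 bp in replicate 1 (rank 1173). Replicate 2 had summits there at -521 bp (rank 17893) and -794 bp (rank 5791). The window summit of vha-15 was listed in replicate 2 (rank 3459) and not in replicate 1. That of vha-14 was listed in replicate 1 (rank 7912) and not in replicate 2. The G subunit gene vha-10 had a window summit in replicate 1 alone, at rank 20990. Just past its window, summits lay at 128 bp in the pooled list (rank 8801), 136 bp in replicate 1 (rank 21720) and 181 bp in replicate 2 (rank 10738).

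In V0, both promoter peaks lay at neighbouring genes for the proteolipid that forms the rotating ring. On chromosome III, vha-1 (WBGene00006910, peak at 9780610 to 9781013) and vha-2 (WBGene00006911, peak at 9782005 to 9782408) run in the same direction with 401 bp between them. The peak of vha-1 was 442 bp upstream of it and 458 bp upstream of the divergent gene sqv-3, a glycosyltransferase gene, with rank 656 in the IDR set, 497 in replicate 1 (signal 79.8) and 1081 in replicate 2 (signal 60.6). The peak of vha-2 was a separate one, centred 43 bp downstream of its annotated start in its coding exon, with rank 468, and 586 in replicate 1 (signal 73.8) and 359 in replicate 2 (signal 102). In replicate 2 its summit lay at 101 bp, just past the window, so replicate 2 alone gives V0 a count of 1 gene in place of 2. A further IDR peak, 1022 bp from the start of vha-2 (rank 1103), lay where its last, untranslated stretch overlaps an untranslated exon of the next gene, R10E11.6.

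The other proteolipid genes and all 4 genes of the large stator subunit a had no IDR summit in the window. For the proteolipid gene vha-3 the pooled window summit ranked 27612, near the end of the list. Past that window, summits lay at 174 bp in the pooled list (rank 11568), 217 bp in replicate 1 (rank 10655) and 509 bp in replicate 2 (rank 19503). The gene vha-4 had a window summit in replicate 1 alone (rank 18422). Just past the window of vha-4, summits lay at 111 bp in the pooled list (rank 7141) and 134 bp in replicate 2 (rank 6797). Of the subunit a genes, which differ in the tissues they serve, vha-6 had a pooled summit at rank 9804 and unc-32 at rank 22743, while vha-5 and vha-7 had none in any list. Among the smaller subunits, pooled ranks were 3686 for vha-17 (subunit e), 7564 for vha-16 (subunit d) and 12222 for vha-19 (an accessory subunit). For another accessory subunit, vha-20 had no window summit in any list, but stronger pooled peaks lay outside its window on both sides. The peak at 210 bp ranked 2997, with 2797 at 111 bp in replicate 1 and 4850 at 217 bp in replicate 2. That at -768 bp ranked 2907, with 11064 at -732 bp in replicate 1 and 1858 at -815 bp in replicate 2. Of the V0 genes without an IDR peak in the window, only vha-17 and vha-3 had a window summit in replicate 2, whereas vha-4, vha-6, vha-16, vha-17, vha-19 and unc-32 had one in replicate 1.

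The 201 bp around 3 of these V-ATPase summits are printed on the strand of the named gene, 5′ to 3′, to show the DNA under the strongest V1 peak, the V0 peak that is clear of annotated exons, and the V1 peak that no other coding window shares and that lies on X. They come from the RefSeq copy of WBcel235, at chrV:8413741-8413941 (minus strand), chrIII:9780712-9780912 (plus) and chrX:4190591-4190791 (plus). None of the 3 holds CACGTG on either strand, so they carry no capitals.
vha-18: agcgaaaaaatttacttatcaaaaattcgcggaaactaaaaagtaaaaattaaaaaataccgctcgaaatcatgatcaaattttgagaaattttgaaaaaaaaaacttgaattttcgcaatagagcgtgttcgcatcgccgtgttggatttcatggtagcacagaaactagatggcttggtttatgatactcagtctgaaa
vha-1: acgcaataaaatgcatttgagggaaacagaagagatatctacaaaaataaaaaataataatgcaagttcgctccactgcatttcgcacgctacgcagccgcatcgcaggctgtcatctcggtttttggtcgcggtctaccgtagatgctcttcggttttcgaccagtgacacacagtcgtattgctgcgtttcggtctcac
vha-12: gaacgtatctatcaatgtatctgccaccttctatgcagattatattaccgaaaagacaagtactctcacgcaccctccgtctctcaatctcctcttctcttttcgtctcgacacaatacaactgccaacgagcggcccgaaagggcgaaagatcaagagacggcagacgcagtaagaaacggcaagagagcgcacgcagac
Their GC contents were 32.3%, 46.3% and 49.3% for vha-18, vha-1 and vha-12. The vha-18 sequence is rich in runs of A and of T, and that of vha-12 holds a stretch of mostly C and T before its middle.

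Of the 26 autophagy genes, 8 had promoter peaks, and the strongest were at lgg-2 and atg-7, of the ubiquitin-like conjugation machinery, where 4 of 11 genes had one. The peak of lgg-2 (WBGene00002981, chromosome IV, peak at 10936164 to 10936326), one of the worm's Atg8 proteins and closest to mammalian LC3, lay 343 bp upstream and ranked 271 in the IDR set. Its rank was 250 in replicate 1 (signal 109) and 329 in replicate 2 (signal 106). A separate IDR peak, ranked 424, lay inside lgg-2, 347 bp downstream of its start in an intron of its longer transcript, with ranks 278 and 682 in replicates 1 and 2.

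At atg-7 (WBGene00010882, chromosome IV, peak at 11080906 to 11081309), the E1-like enzyme that activates Atg8 and Atg12, the summit was 53 bp upstream and ranked 578, with 402 in replicate 1 (signal 88.4) and 661 in replicate 2 (signal 77.9). The gene starts 31 bp after the end of let-70, which encodes a ubiquitin-conjugating enzyme, and the summit lay in the untranslated end of let-70. The peak of lgg-3 (WBGene00002982, chromosome III, peak at 5698125 to 5698528), the worm Atg12, ranked 1053, with 878 in replicate 1 (signal 61.9) and 1495 in replicate 2 (signal 52.3). It was 314 bp upstream of lgg-3 and 228 bp upstream of the divergent gene rgs-5, a regulator of G-protein signalling. The peak of the Atg8 protease gene atg-4.1 (WBGene00013595) was 410 bp upstream and ranked 1402, with 2123 in replicate 1 (signal 40.6), outside the strongest 1880 there, and 1179 in replicate 2 (signal 58.1).

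IDR summits thus lay in the window of 1 gene of the Atg8 pair and 1 of the protease pair. The second protease gene, atg-4.2, had no window summit in any list. For the other Atg8 gene, lgg-1, the GABARAP-like protein most used as the autophagosome marker in worms, the replicates disagreed: its window summit ranked 577 in replicate 1 (signal 74.1) and 16153 in replicate 2 (signal 17.8), and 2313 in the pooled list, below the IDR threshold. IDR peaks flanked it outside the window, 914 bp upstream (rank 675, with 728 and 745 in replicates 1 and 2) and 945 bp downstream, beyond the end of the gene (rank 350, with 544 and 285). Of the rest, atg-10 (an E2-like enzyme) and atg-16.2 had pooled summits at ranks 10187 and 22317, and atg-3, atg-5 and atg-16.1 had none in any list.

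**Figure D2:**
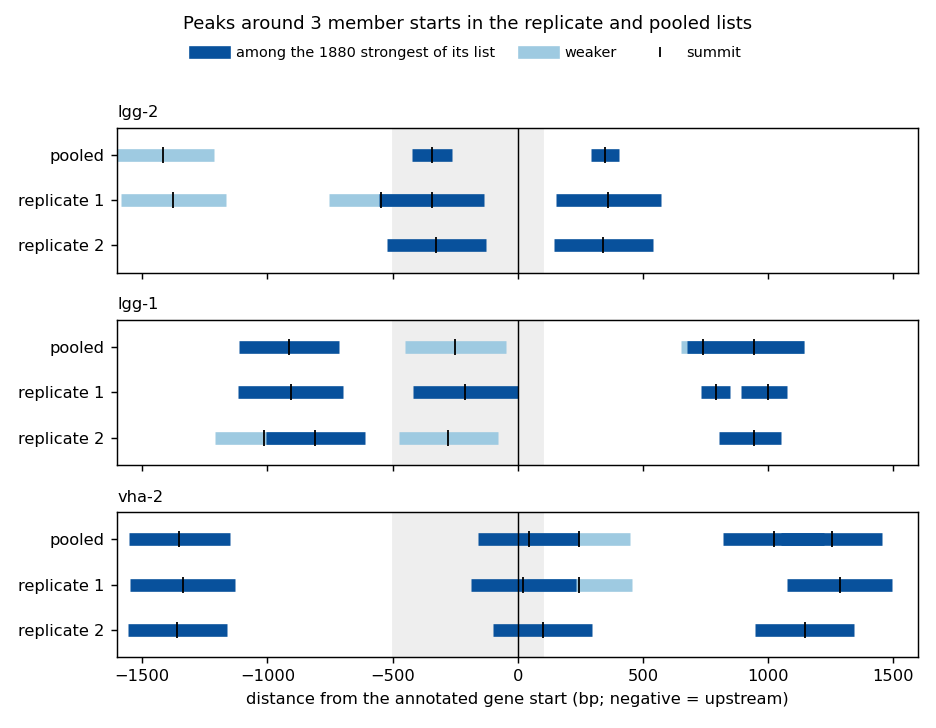
Peaks (bars) and summits (ticks) of the pooled and replicate lists within about 1500 bp of the annotated starts of lgg-2, lgg-1 and vha-2, with position in bp from the start on the horizontal axis, the promoter window in grey, and dark bars for peaks among the 1880 strongest of their list. The lgg-2 summit at -343 bp is dark in all lists, the lgg-1 summit in the window is dark in replicate 1 alone, and the vha-2 summit of replicate 2 sits at 101 bp, just past the window.

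Genes for the supply of membrane had peaks at 2 of 4. The peak of atg-9 (WBGene00020706, chromosome V, peak at 349029 to 349432), a membrane protein of the vesicles that seed the autophagosome, lay 154 bp upstream and ranked 788, with 1489 in replicate 1 (signal 48.1) and 596 in replicate 2 (signal 82.0). That of epg-6 (WBGene00012641, chromosome III, peak at 10600247 to 10600650), a WIPI-like phosphoinositide-binding protein, lay 261 bp upstream and ranked 859, with 932 in replicate 1 (signal 60.2) and 1246 in replicate 2 (signal 56.8). The other WIPI-like gene, atg-18, had its pooled summit at rank 2334, with 3425 in replicate 1 (signal 32.4) and 2527 in replicate 2 (signal 41.1). The lipid transfer gene atg-2 had no window summit in any list. Past its window, summits lay at 533 bp in the pooled list (rank 3832), 631 bp in replicate 1 (rank 3228) and 540 bp in replicate 2 (rank 4660).

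Among the 4 genes of the initiation complex, epg-7 (WBGene00020334, chromosome X, peak at 7334334 to 7334737), a FIP200-like scaffold, had an IDR peak 178 bp upstream at rank 715, with 667 in replicate 1 (signal 69.5) and 922 in replicate 2 (signal 66.1). Pooled summits of atg-13 and of the kinase gene unc-51 ranked 4531 and 27221. The window of epg-9, an ATG101-like partner of ATG-13, held no pooled summit. Yet the strongest IDR peak within 1500 bp of the start of any of the 26 autophagy genes lay in an intron of epg-9. It was 1010 bp downstream of the start and ranked 48, with 37 and 58 in replicates 1 and 2. A further IDR peak, in no coding window, lay 1209 bp upstream of the epg-9 start (rank 1005, with 983 and 1078 in replicates 1 and 2).

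For later steps, the peak of epg-4 (WBGene00018150, chromosome III, peak at 7181828 to 7182231), an endoplasmic reticulum membrane protein related to EI24, lay 137 bp upstream and ranked 968, with 1736 in replicate 1 (signal 44.8) and 948 in replicate 2 (signal 64.9). The tethering factor gene epg-5 had a pooled summit at rank 19428, and the VMP1-like gene epg-3 and the cargo adaptor gene epg-2 had no window summit in any list. Neither gene of the lipid kinase complex had an IDR summit in its window. Of these, epg-8, the Atg14-like subunit, had its pooled summit at rank 2824, with 2794 in replicate 1 and 4764 in replicate 2, and bec-1, the worm Beclin, had its summit at rank 24206. The window of hlh-30 held a pooled summit at rank 7467 and no IDR summit. That gene has several annotated transcript starts, and an IDR peak (rank 1708, with 3076 and 1066 in replicates 1 and 2) lay 272 bp upstream of an internal one, in an intron 6552 bp from the annotated gene start. Another (rank 1387, with 795 and 2943 in replicates 1 and 2) lay in an intron 10598 bp from it.

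The DNA under the autophagy peaks is shown for lgg-2, the strongest of them, and for epg-7 and atg-9, the only ones of the 14 whose 201 bp around the IDR summit held CACGTG, the E-box that TFEB-type factors are known to bind. The sequences are those of RefSeq WBcel235 at chrIV:10936146-10936346 (minus strand), chrX:7334436-7334636 (plus) and chrV:349131-349331 (plus), on the strand of the gene, 5′ to 3′, with CACGTG in capitals.
lgg-2: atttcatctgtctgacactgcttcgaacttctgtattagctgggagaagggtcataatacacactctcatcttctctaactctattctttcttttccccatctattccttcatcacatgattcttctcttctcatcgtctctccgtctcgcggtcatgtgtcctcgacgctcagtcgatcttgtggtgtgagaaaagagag
epg-7: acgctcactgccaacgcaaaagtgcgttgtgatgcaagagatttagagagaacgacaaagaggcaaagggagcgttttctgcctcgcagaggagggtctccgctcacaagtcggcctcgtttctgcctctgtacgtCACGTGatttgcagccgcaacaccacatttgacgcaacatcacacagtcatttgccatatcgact
atg-9: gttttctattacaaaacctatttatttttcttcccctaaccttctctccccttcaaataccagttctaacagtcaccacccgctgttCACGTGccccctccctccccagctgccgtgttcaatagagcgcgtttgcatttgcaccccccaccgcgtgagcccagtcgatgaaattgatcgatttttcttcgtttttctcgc
The E-box starts 36 bp downstream of the summit at epg-7, where it is part of the longer palindrome TCACGTGA, and 13 bp upstream of it at atg-9. The lgg-2 sequence holds a long central stretch of mostly C and T, and no CACGTG.

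The 201 bp around each summit were searched on both strands for 5 motifs, spelled out with their counts. CACGTG was present at 2 of 14 member summits, beside 6.2% of the 836 IDR summits in promoter windows of all coding genes, and TCACGTGA, which contains it, at 1 of 14, beside 0.6%. GCGCCA occurred at none of the 14 and at 20.7% of the 836. TATAAA was found at 1 of 14, lgg-3, beside 15.1%, and CCAAT at 4 of 14, beside 28.3%. Over the whole promoter window CACGTG occurred in 6 of the 47 members, atg-13, atg-9, epg-5, epg-7, vha-3 and vha-4, beside 10.4% of all coding genes. A match of letters is not a binding site, and its absence says only that these letters are not in the window.

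The 14 summits lay between 472 bp upstream and 43 bp downstream of the starts, with a median of -287.5 bp, and the median over all 1063 pairs of a coding gene and an IDR summit in its window was -197 bp. Medians by group were -381 bp for V1, -199.5 bp for V0 and -219.5 bp for autophagy genes. The member's own start was the nearest coding start for 11 of the 14 summits, the exceptions being vha-18, vha-8 and lgg-3. A second coding window held the summit at 4 of 14, each that of a divergent gene, where 26.8% of the 836 promoter peaks lay in more than 1 window. The 201 bp around the summits had a GC content of 29.4% to 51.7%, with a median of 43.0%, beside a median of 40.3% for all 836.

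**Figure D3:**
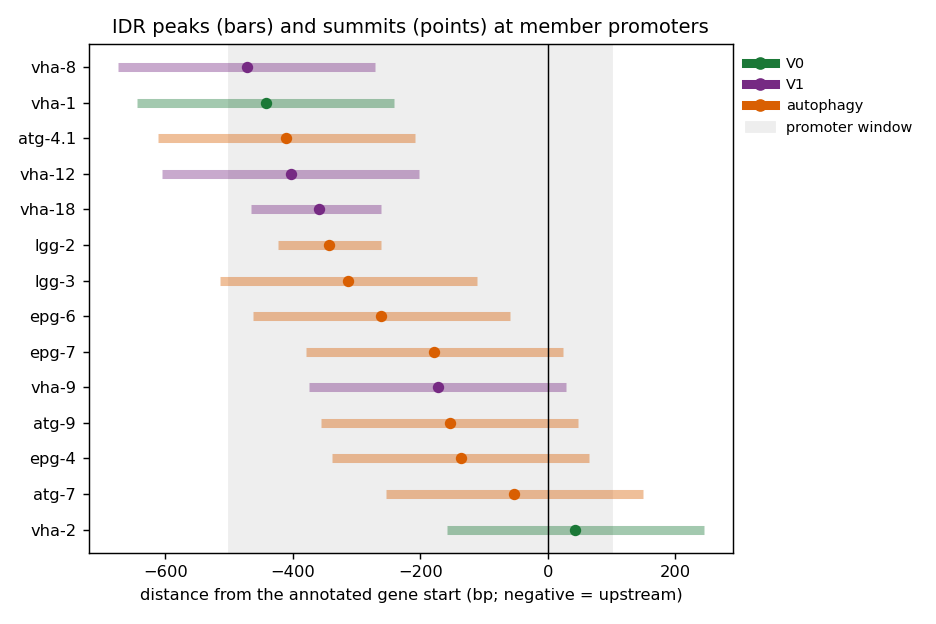
IDR peaks (bars) and their summits (points) at the 14 promoters, in bp from the annotated start of each gene, coloured by group, with the promoter window in grey. Summits run from -472 bp at vha-8 to 43 bp at vha-2, which alone lies downstream of its start.

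Both replicates had an overlapping peak among their 1880 strongest at 12 of the 14, the exceptions being vha-9 and atg-4.1 in replicate 1, and 68.1% of all IDR peaks met that condition. Over the 14 peaks, which share their libraries and were selected as strong in the pool of both replicates, the ranks in replicates 1 and 2 had a Spearman rho of 0.67. The median IDR rank was 823.5 for the 14 members, close to the 790 of the 836 promoter peaks. The 14 ranks ran from 188 at vha-18 to 1529 at vha-9, with medians of 1359.5 for V1, 562 for V0 and 823.5 for autophagy genes. The 20 members with a pooled summit only had ranks from 2313 to 27612 with a median of 8684, beside 10951 over the 4083 coding genes of that kind. A further 3 members had a window summit in a single replicate list, and 10 had none in any list.

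**Figure D4:**
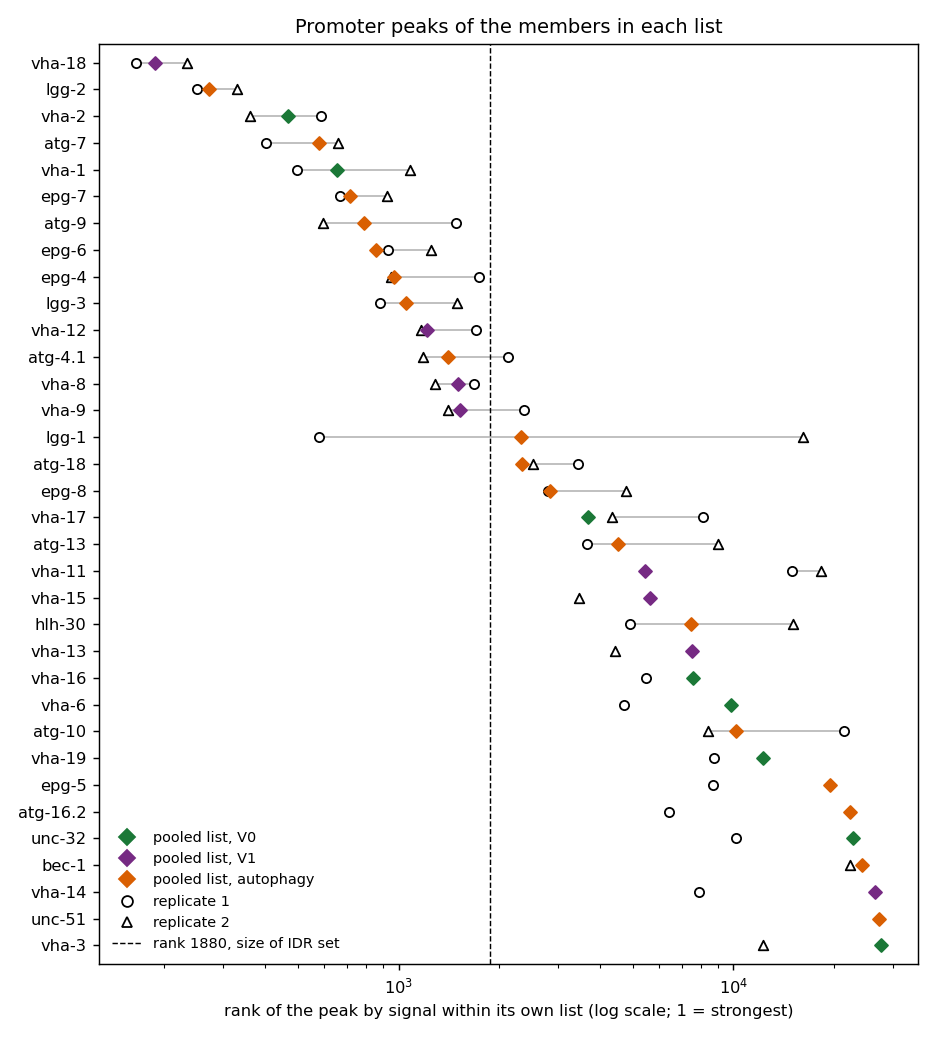
Rank by signal within each list (log axis, 1 is the strongest) for the 34 members with a pooled summit in the promoter window, with diamonds for the pooled list coloured by group, circles for replicate 1, triangles for replicate 2 and a dashed line at rank 1880. Replicate symbols show the overlapping peak for the 14 IDR members and the best window summit for the others, and a missing symbol means that the replicate listed none. Among members with both replicate symbols, these lie farthest apart in ratio at lgg-1, at 577 and 16153.

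Inside the genes, beyond 100 bp downstream of the start, IDR summits were present at 4 of the 47 members, vha-2, lgg-2, epg-9 and hlh-30, beside 2.46% of all protein-coding genes. Several members without a promoter peak lay near strong peaks that belong to other windows. The peak 1334 bp upstream of unc-32, at rank 33, lay in the window of lin-9, which encodes a DREAM complex subunit, and the peak 1260 bp upstream of vha-4, at rank 149, in that of perm-1, an eggshell gene. Downstream of vha-10, the peak at 1246 bp (rank 836) lay in the window of ubl-5, which encodes a ubiquitin-like protein. None of these counted for the member.

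Of 40 further genes of lysosomes, endolysosomal fusion, TOR signalling and cargo recognition, 6 (15%) had an IDR summit in the promoter window, beside 5.28% of all protein-coding genes. These were rheb-1 (the GTPase that activates TOR, rank 184, shared with the kinase gene spk-1), rbc-2 (a rabconnectin linked to V-ATPase assembly, rank 558, shared with ndua-8 and Y54F10AM.15), rab-7 (the late endosomal GTPase, rank 1069), vps-39 (a HOPS tethering subunit, rank 1229), lmtr-3 (a Ragulator subunit, rank 1322, shared with atp-5) and scav-3 (a lysosomal membrane protein, rank 1677, shared with Y49E10.21). The kinase let-363, the worm TOR, had a pooled summit at rank 7481, and sqst-1 (the p62-like cargo receptor) and vps-34 (the lipid kinase that acts with BEC-1 and EPG-8) had none in the pooled list. Ranks in replicates 1 and 2 were close at rheb-1 (188 and 205) and rbc-2 (590 and 663), and farther apart at rab-7 (496 in replicate 1 and 3680 in replicate 2), lmtr-3 (792 and 3233), scav-3 (858 and 6342) and vps-39 (2587 and 855). Replicate 2 alone gave 3 of the 40 genes (7.5%), near the 4.94% of all protein-coding genes, and replicate 1 alone gave 5 (12.5%), beside 5.13%.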

How the data were processed

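TLF-1 binding was measured by ChIP-seq in 2 biological replicates of 1 group, as 4 lists of peaks on assembly ce11. Per the README files the authors deposited, each replicate list was made from its own alignments and 1 control shared by both replicates, the pooled list from both, and the IDR set from the other lists. Signal values are the authors' own and only rank peaks within a list. For description alone, the -log10 q-values of the deposited lists were read. Neither the peak caller nor the aligner, IDR threshold or depth is given in the sources used here.

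Genes came from Ensembl release 115 (WBcel235, which is ce11), and sequence from RefSeq WBcel235. A summit may count for several genes. With 1 group no test was run, and counts of members are described beside the matching share of all coding genes. The members, the further pathway genes and the motifs were chosen with earlier results of these data known. Each member with an IDR summit is described in full, the others by their best pooled rank or by name, as are neighbours that share a summit and pathway genes with an IDR summit. Genes beside peaks outside the windows, and let-363, sqst-1 and vps-34, were picked after their values were seen. The code recovered 200 of 200 planted summits among 19973 genes. Other windows, all transcript starts, nearest starts, the stronger IDR peaks and single replicates were tried. Versions were Python 3.11.15 with numpy 2.4.6, and scipy 1.17.1, pandas 2.3.3 and matplotlib 3.10.9.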

Additional observations from a re-analysis of the deposited data

How the results depend on the processing

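Of 44 counts recomputed under other settings, 31 stayed within 1.5 times the reported count. With 250 bp upstream, 1 V0, 1 V1, 4 autophagy and 3 further pathway genes had an IDR summit, 6 members in all (beside 3.45% of all coding genes), and 22 members had a pooled one (beside 18% of all coding genes). In the stronger 940 IDR peaks these were 2 V0 (16.7%), 1 V1 (11.1%) and 5 autophagy genes, 8 members in all, beside 3.12% of all coding genes. The V1 share was thus not above that of V0 in this set. Among further pathway genes 2 (5%) had a summit there, near the share of all coding genes. The set of 940 holds fewer peaks. With each summit given to the nearest start only, V1 kept 2 (beside 4.13% of all coding genes). Widening the window to 1000 bp before and 500 bp after the start added lgg-1, giving 15 members, beside 6.98% of all coding genes. All transcript starts added hlh-30, also giving 15 members, beside 5.64%, and all 14 were kept in both settings. In the pooled list the wider window gave 38 members, beside 40.4% of all coding genes. There all transcript starts gave 36, beside 28.9%, with atg-2 and epg-9 gained. Leaving out a replicate gave 1 to 2 V0, 3 to 4 V1, 8 autophagy and 3 to 5 further pathway genes, and 13 members, beside 4.94% (without replicate 1) and 5.13% (without replicate 2) of all coding genes. Without replicate 1 vha-2 was lost, and without replicate 2 vha-9 and atg-4.1 were lost and lgg-1 was gained. No paired analysis was possible because there is 1 group and no test was run. Effects of sequencing depth could not be examined, since no depth is known.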

Other observations

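Operon-like positions, with a start at most 500 bp behind the end of a coding gene on the same strand, were held by 11 of the 47 members, of which 4 had an IDR summit in the promoter window, beside 6.25% of all 3615 coding genes in such a position. These were vha-2 (401 bp behind vha-1), vha-9 (426 bp behind gcy-4), epg-4 (248 bp behind ndab-2) and atg-7 (31 bp behind let-70). By chromosome, IDR summits were present at 5 of 9 members on III, beside 9.24% of all coding genes there, 3 of 14 on IV (beside 5.67%), 2 of 6 on X (2.42%), 2 of 5 on V (3.3%), 1 of 7 on II (5.1%) and 1 of 6 on I (7.54%). These counts are too small to set 1 chromosome apart from another.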
